A study of Mus musculus with 123 samples.

Results

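The genes described here are 8 immediate early genes of the mouse, Fos, Fosb, Junb, Egr1, Ier2, Dusp1, Nr4a1 and Arc, taken by symbol from the 24134 genes measured in individual sensory neurons of the dorsal root ganglion (DRG) after sciatic nerve transection (SNT). They belong to 1 textbook class, and the list was drawn up with earlier results of these data known. Their levels were compared between the SNT side and the uninjured opposite side, with the question of whether they follow the injury or are high on both sides of a preparation in which all cells were dissociated. Levels are given in CPM, the deposited count of a gene divided by the total of its library and scaled to a total of 1000000.

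Immediate early genes are transcribed within minutes of a stimulus without new protein synthesis, mainly through serum response factor at serum response elements and through CREB at cyclic AMP response elements. Their transcripts are short-lived, and in neurons they are induced by firing, by growth factors and by the handling of tissue, including enzymatic dissociation. Fos, Fosb and Junb encode subunits of the AP-1 transcription factor, Egr1 is a zinc finger factor, Nr4a1 is an orphan nuclear receptor, Ier2 is a small nuclear protein, Dusp1 is a phosphatase that switches off MAP kinases, and Arc acts at synapses in the trafficking of glutamate receptors.

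The right sciatic nerve of 2-month-old mice was cut at mid-thigh, ganglia of both sides were collected, and neurons were picked by hand for Smart-seq2. At day 3 the animals were female F1 offspring of a CAST/Eij male and a C57BL/6 female, and libraries were read as 50 bp single ends. At day 7 they were C57BL/6 mice of both sexes and libraries were read as 75 bp paired ends, so that day, strain and read type cannot be told apart. The SNT side gave 48 cells at day 3 and 33 at day 7, the control side gave 22 and 14, and each side gave 3 pooled libraries at day 3. The control side was the uncut side of operated animals, not of unoperated ones. The 3 pooled libraries of a side were parts of 1 lysate of picked neurons, and the cells carry no animal label. All tissue on both sides was dissociated with enzymes after dissection on ice, so a level shared by both sides cannot be told apart from a level set by the dissociation.

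Of the 70 cells at day 3, the authors set 11 aside as outliers, and these cells also stood apart in their markers. Their summed level of 10 glial genes, Apoe and Fabp7 among them, was 40600 to 100000 CPM, against 891 to 14500 CPM in the 59 retained cells. Their summed level of 10 neuronal genes was 524 to 7720 CPM, against at least 12400 CPM in every retained cell, so their profiles went against the neuronal label. Comparisons between cells use the 106 retained cells, and day-3 ratios with the 11 added are given as an alternative. Library totals were 277390 to 1849130 counts in retained day-3 cells, 261351 to 1018545 in day-7 cells and 563462 to 2003817 in pooled libraries. Atf3, a transcription factor induced by axotomy, stood at 1467 CPM in the pooled libraries named SNT and at 13.5 CPM in those named control. The identifiers in the deposited table pair the pooled libraries with the opposite sides, and under that reading the sign of every pooled difference below would turn. The column names were followed, as Atf3 in the retained day-3 cells was likewise 1480 CPM (SD 1110, n = 41) on the SNT side and 17.7 CPM (SD 22.7, n = 18) on the control side.

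Promoter sequences are shown for 5 of the genes, from the RefSeq promoter table of GRCm38.p6. They are shown because the cyclic AMP response element is the best known link between neuronal activity and this gene class. Ier2 and Arc had no entry, and Egr1 was left out before the search together with the rest of its chromosome. Each runs 5′ to 3′ on the strand of the gene over the 250 bases before the transcription start, with the core TGACG, or its reverse complement CGTCA, in capitals.
Fos, chr12:85473640-85473889, plus strand: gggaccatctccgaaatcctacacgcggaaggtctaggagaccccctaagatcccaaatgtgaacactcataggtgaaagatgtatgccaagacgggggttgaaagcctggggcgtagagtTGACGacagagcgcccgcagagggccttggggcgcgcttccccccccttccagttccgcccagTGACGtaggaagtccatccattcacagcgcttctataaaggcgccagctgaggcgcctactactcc
Fosb, chr7:19310046-19310295, minus strand: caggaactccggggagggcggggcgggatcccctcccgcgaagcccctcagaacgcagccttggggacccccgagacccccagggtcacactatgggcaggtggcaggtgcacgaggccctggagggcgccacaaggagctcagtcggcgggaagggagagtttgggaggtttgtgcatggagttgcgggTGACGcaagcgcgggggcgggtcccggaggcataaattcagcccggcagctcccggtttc
Junb, chr8:84978749-84978998, minus strand: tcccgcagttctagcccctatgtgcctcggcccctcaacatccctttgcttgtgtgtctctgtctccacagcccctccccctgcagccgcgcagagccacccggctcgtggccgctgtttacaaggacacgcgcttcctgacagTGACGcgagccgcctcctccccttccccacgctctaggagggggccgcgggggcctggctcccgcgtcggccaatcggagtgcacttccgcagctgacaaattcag
Dusp1, chr17:26508473-26508722, minus strand: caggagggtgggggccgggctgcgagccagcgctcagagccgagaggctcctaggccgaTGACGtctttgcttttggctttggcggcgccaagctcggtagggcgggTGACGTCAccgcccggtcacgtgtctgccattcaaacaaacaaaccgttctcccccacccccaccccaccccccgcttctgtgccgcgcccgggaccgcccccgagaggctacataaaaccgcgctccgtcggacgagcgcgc
Nr4a1, chr15:101266596-101266845, plus strand: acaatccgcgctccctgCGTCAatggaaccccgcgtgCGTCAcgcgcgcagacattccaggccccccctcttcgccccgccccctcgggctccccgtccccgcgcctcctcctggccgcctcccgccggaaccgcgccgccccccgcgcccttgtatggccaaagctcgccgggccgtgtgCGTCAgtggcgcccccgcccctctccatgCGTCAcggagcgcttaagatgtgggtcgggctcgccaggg
All 5 sequences held the core on at least 1 strand, against 17.8% of the 32851 promoters of the same length that were searched. Fos held 2 matches, beginning 129 and 66 bases before the start, Fosb held 1 at 60 bases, Junb held 1 at 106 bases and Nr4a1 held 4 at 233, 213, 69 and 40 bases. In Dusp1 the matches at 143 and 140 bases overlap as the full palindrome TGACGTCA, which 1.55% of all promoters held and none of the other 4 genes did, and a further match lay at 191 bases. The AP-1 site TGANTCA, in 6.75% of all promoters, and the CArG box that serum response factor binds, in 1.47%, were not found within these windows on either strand. A match describes the letters only and shows no binding.

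In the GENCODE M21 annotation of GRCm38, Fos lies at chr12:85473890-85477273, Fosb at chr7:19302696-19310051, Junb at chr8:84974484-84978718, Ier2 at chr8:84661331-84662852, Nr4a1 at chr15:101254269-101274795 and Arc at chr15:74669083-74672570. Dusp1 lies at chr17:26505590-26562128. Junb overlaps Prdx2 on the other strand. The annotated span of Dusp1 overlaps 4 genes, Ergic1 among them, of which 2 lie on the other strand. These libraries do not mark strand, so strand could not separate reads within such overlaps. The authors counted reads on known RefSeq exons, and whether those exons overlap was not examined.

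In the pooled day-3 libraries the genes divided by direction. Dusp1 and Arc were higher on the SNT side, Fos, Egr1 and Ier2 were lower, and Junb and Nr4a1 did not pass the limits. Of the 7 members tested, 5 were called by edgeR's quasi-likelihood test (Benjamini-Hochberg adjusted p under 0.05 and a change of more than 2-fold), against 15.9% of the 13509 genes tested. Higher calls made up 2 of the 7, against 8.83% of all genes, and lower calls 3 of the 7, against 7.1%. For all 7 the 3 libraries of a side did not overlap those of the other, which was so for 38% of all genes. The median change was -0.82 on the log2 scale over the 7 and 0.02 over all genes.

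Fos, the founding AP-1 subunit, stood at 72.9, 107.3 and 87.0 CPM in the control libraries and at 29.9, 33.1 and 30.4 CPM in the SNT libraries. Every control library was above every SNT library, and the log2 change was -1.37 (SE 0.24, edgeR adjusted p = 2.7e-05), which is 2.58-fold higher on the control side in the fit. Fosb, its close relative, was at 0 in 5 libraries and had 4 counts in the second control library, too few for a test. Junb, the Jun-family partner, stood at 66.0, 40.5 and 31.9 CPM in control and at 28.1, 23.5 and 27.9 CPM in SNT libraries. The lowest control library was just above the highest SNT library, and the log2 change of -0.64 (SE 0.30) missed the limit (edgeR adjusted p = 0.11).

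Egr1 stood at 26.1, 27.4 and 24.9 CPM in the control libraries and at 10.2, 14.8 and 8.98 CPM in the SNT libraries, a log2 change of -1.08 (SE 0.40, edgeR adjusted p = 0.04). Ier2 stood at 16.5, 11.9 and 21.3 CPM against 4.19, 6.96 and 2.0 CPM, a log2 change of -1.80 (SE 0.59, edgeR adjusted p = 0.019). These calls rest on few counts, 52 for Egr1 and 19 for Ier2 over the 3 SNT libraries together. Nr4a1 stood at 49.5, 53.6 and 76.3 CPM in control and at 28.1, 33.9 and 28.4 CPM in SNT libraries. Its log2 change of -0.82 (SE 0.27) passed the p-value limit (edgeR adjusted p = 0.021) but not the 2-fold limit.

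Dusp1 went the other way, with 52.3, 58.4 and 39.1 CPM in the control libraries and 139.9, 144.5 and 139.2 CPM in the SNT libraries. The SNT libraries were close together and far above the control libraries, and the log2 change was 1.64 (SE 0.21, edgeR adjusted p = 4.8e-08). Arc stood at 4.13, 7.2 and 5.33 CPM in control and at 12.5, 15.7 and 23.5 CPM in SNT libraries. Its log2 change was 1.77 (SE 0.52, edgeR adjusted p = 0.0088), on 12 counts over the 3 control libraries and 86 over the 3 SNT libraries.

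**Figure D1:**
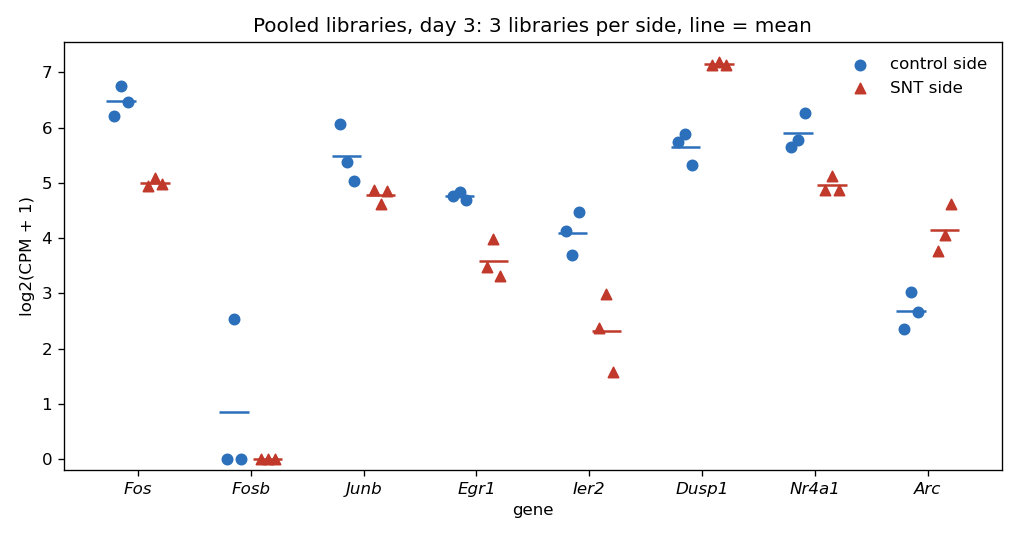
Level of each member in the pooled day-3 libraries as log2(CPM + 1), with 3 control-side libraries as circles, 3 SNT-side libraries as triangles and the mean of each side as a line. Dusp1 and Arc are higher in all 3 SNT libraries, and Fos, Junb, Egr1, Ier2 and Nr4a1 are lower in all 3.

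Calls for Fos and Dusp1 held in all 14 alternative analyses. Arc lost its call without SNT library 3 (edgeR adjusted p = 0.10), Ier2 in 4 of the 14 and Egr1 in 10 of the 14, so that 2 to 5 members were called when 1 library at a time was left out. Since the 3 libraries of a side came from 1 lysate, these p-values compare 2 pools over technical spread and not groups of animals.

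Markers of other cells moved with the side in the same pooled libraries. The 10 glial markers summed to 12600 to 15300 CPM in control and to 6160 to 6950 CPM in SNT libraries. All 10 were tested and none was at 0 on either side, with 5 called lower in SNT libraries, Apoe, Fabp7, Cdh19 and Kcnj10 among them, and 1 called higher. The 10 neuronal markers summed to 15500 to 17900 CPM in control and to 27500 to 30300 CPM in SNT libraries. Of these, Tubb3 (log2 change 1.72), Stmn2 (1.42) and Nefm (1.16) were called higher and none was called lower. Nefl, Uchl1 and Prph also lay above 0, but Rbfox3 (-0.805), Snap25 (-0.45), Isl1 (-0.43) and Avil (-0.32) lay below 0. The 10 immune markers summed to 0 to 3.58 CPM in control and to 7.83 to 9.98 CPM in SNT libraries. Only 2 of them were tested, and 1 was called higher. The 8 vascular and fibroblast markers summed to 57.2 to 75.6 CPM in control and to 37.7 to 51.4 CPM in SNT libraries. Of 6 tested, 1 was called higher and 1 lower. The part of this difference in glial RNA in the lower Fos, Egr1, Ier2 and Nr4a1 was not tested. In pooled libraries, fewer cells that express a gene and less RNA per cell cannot be told apart.

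Per kilobase of transcript, using the longest RefSeq-matched transcript of each gene, Fos had the highest level in the pooled control libraries at 42.2 CPM per kb (SD 8.20, n = 3). It was followed by Junb at 25.5, Dusp1 at 25.1 and Nr4a1 at 24.2 CPM per kb, which differed by less than the SD of any of them (9.80, 4.97 and 5.83). Ier2 at 10.9, Egr1 at 8.61, Arc at 1.81 and Fosb at 0.42 CPM per kb came last, with Ier2 and Egr1 closer together than the Ier2 SD of 3.08. In the pooled SNT libraries Dusp1 led at 71.0 CPM per kb (SD 1.44), ahead of Fos at 14.8, Junb at 14.7 and Nr4a1 at 12.2 CPM per kb, of which Fos and Junb differed by less than either SD (0.808 and 1.44). Arc followed at 5.64 CPM per kb (SD 1.84), above Egr1 at 3.73 and Ier2 at 2.88 CPM per kb, whose spreads of 1.01 and 1.64 overlap.

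In the retained day-3 cells the picture differed, since the lower levels of Fos, Junb and Nr4a1 in the pooled SNT libraries had no counterpart in the cell means. The log2 ratio of mean CPM + 1, SNT over control side, was 2.39 for Arc, 0.88 for Dusp1, 0.50 for Nr4a1, 0.47 for Junb, 0.04 for Fos, -0.46 for Egr1, -0.74 for Ier2 and -1.56 for Fosb. A ratio past 2-fold was reached by 2 of the 8, Arc upward and Fosb downward, against 13.2% of the 13663 genes that averaged 1 CPM or more. By direction, 7.1% of all genes were past 2-fold upward and 6.07% downward. Without an animal label all cells of a side are 1 sample, so no test was made on cells and the spreads given are over cells. Neuron subtypes were not matched between the sides at either day, and their part in the ratios was not tested.

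**Figure D2:**
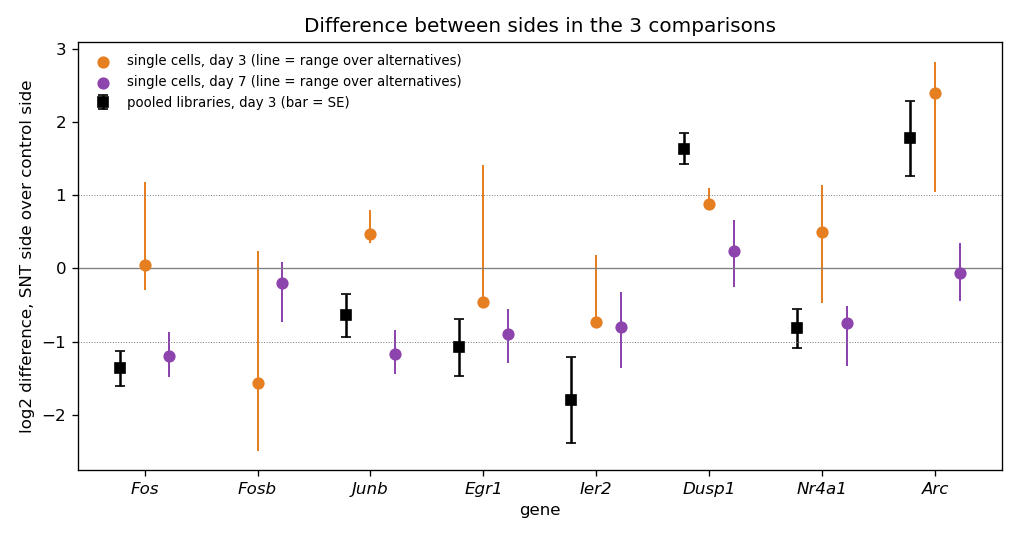
Log2 difference of each member between the SNT and the control side in pooled day-3 libraries (squares, bar = SE), retained day-3 cells and retained day-7 cells (circles, line = range over the alternative ways of averaging, scaling and selecting cells). Dotted lines mark 2-fold, and Fosb has no pooled value. Arc and Dusp1 lie above 0 in both day-3 comparisons, whereas Fos, Junb and Egr1 lie below 0 in pooled libraries and in day-7 cells.

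Arc showed the clearest separation between cells. On the SNT side it ranged from 0 to 91.0 CPM with a median of 6.07 CPM and a mean of 14.7 CPM (SD 20.1, n = 41), and on the control side from 0 to 16.7 CPM with a median of 0 and a mean of 1.99 CPM (SD 4.23, n = 18). Above 10 CPM lay 20 of 41 cells of the SNT side, or 48.8% (95% interval 32.9% to 64.9%, exact binomial), and 1 of 18 cells of the control side, or 5.56% (0.141% to 27.3%). These intervals cover counting error over cells only and are no test between the sides. The ranges overlapped, with 12 SNT-side cells above every control-side cell. All 12 also had more Atf3 than any control-side cell, as had 30 of the 41 SNT-side cells in all.

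Dusp1 was found in nearly every cell, from 0.971 to 439 CPM with a median of 66.2 CPM and a mean of 109 CPM (SD 119, n = 41) on the SNT side, and from 0 to 269 CPM with a median of 35.3 CPM and a mean of 58.8 CPM (SD 74.9, n = 18) on the control side. The difference in means was smaller than the SD over cells of either side. There were 6 SNT-side cells above every control-side cell in Dusp1, and all 6 had more Atf3 than any control-side cell. Across the 41 SNT-side cells the rank correlation (Spearman's rho) of Dusp1 with Atf3 was 0.47, and that of Junb with Atf3 was 0.43. It was lower for Arc (0.26), Ier2 (0.25) and Egr1 (0.17) and at or below 0 for Fos (-0.04), Nr4a1 (-0.20) and Fosb (-0.23). Atf3 itself had 2 separated ranges among these cells, so these values largely rank cells between the ranges.

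**Figure D3:**
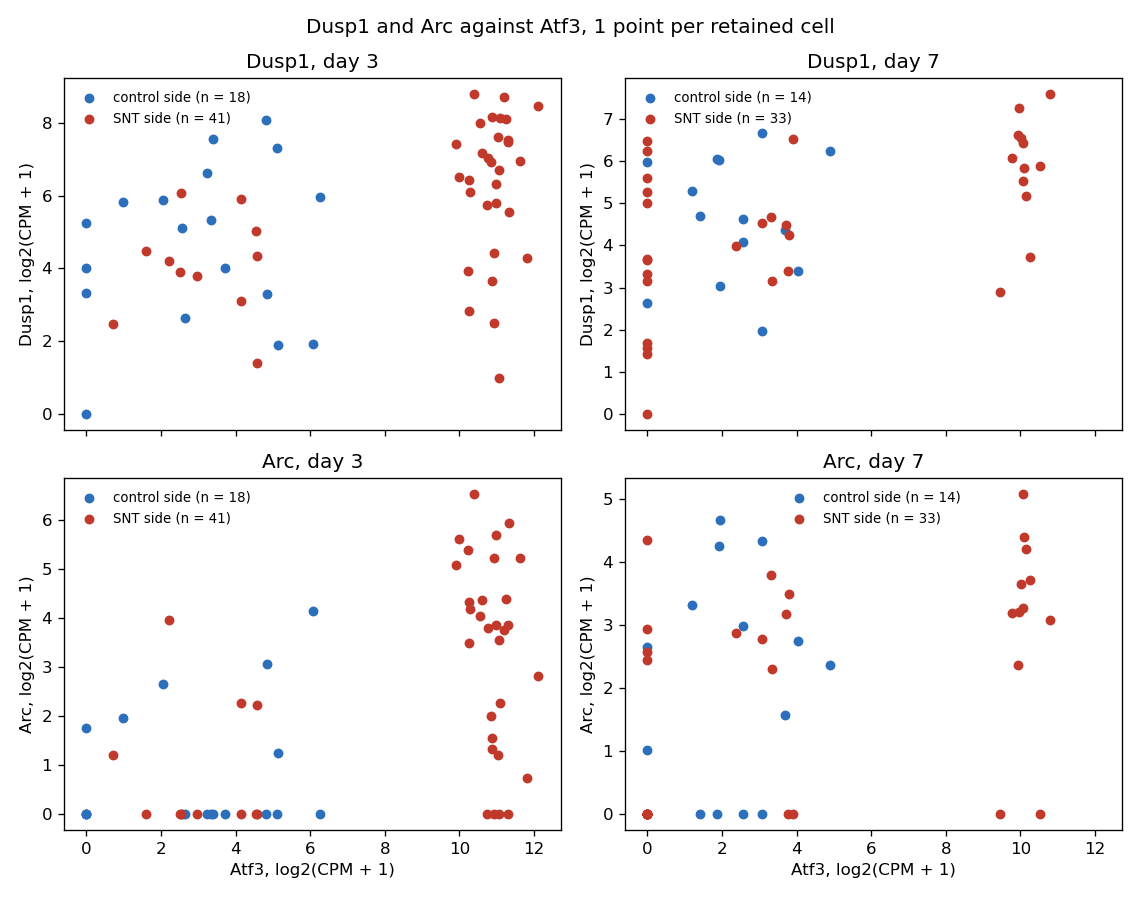
Dusp1 (top) and Arc (bottom) against Atf3 as log2(CPM + 1) in retained cells at day 3 (left) and day 7 (right), 1 point per cell, with control-side cells in blue and SNT-side cells in red. SNT-side cells divide into a low and a high range of Atf3, and at day 3 all 12 cells with Arc above every control-side cell lie in the high range.

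Fos was low in most cells and high in a few. On the SNT side it ranged from 0 to 661 CPM with a median of 3.3 CPM and a mean of 38.5 CPM (SD 112, n = 41), and on the control side from 0 to 238 CPM with a median of 4.24 CPM and a mean of 37.4 CPM (SD 69.5, n = 18). The sides overlapped over nearly the whole range, and the 3 highest cells held 67.1% of the summed level on the SNT side and 78.5% on the control side. At least 1 count of Fos was present in 33 of 41 SNT-side and 12 of 18 control-side cells, while 14 and 5 cells were above 10 CPM. Fosb was at 0 in 32 of 41 SNT-side and 14 of 18 control-side cells and did not exceed 4.49 CPM on the SNT side, so its ratio rests on 3 control-side cells of up to 39.3 CPM, which held 98.5% of the level on that side.

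Junb was the most even of the AP-1 members. It ranged from 0 to 253 CPM with a median of 43.3 CPM on the SNT side and from 0.963 to 151 CPM with a median of 31.2 CPM on the control side, and it was above 10 CPM in 37 of 41 and 14 of 18 cells. Egr1 ranged from 0 to 107 CPM with a median of 3.79 CPM on the SNT side and from 0 to 160 CPM with a median of 0.798 CPM on the control side. For Egr1 the median was higher on the SNT side and the mean, 18.7 against 26.1 CPM, was higher on the control side. Ier2 had medians of 8.17 CPM (range 0 to 43) and 7.1 CPM (range 0 to 121), and Nr4a1 had medians of 11.7 CPM (range 0 to 105) and 4.80 CPM (range 0 to 65.8) on the SNT and control side. Both genes overlapped between the sides.

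**Figure D4:**
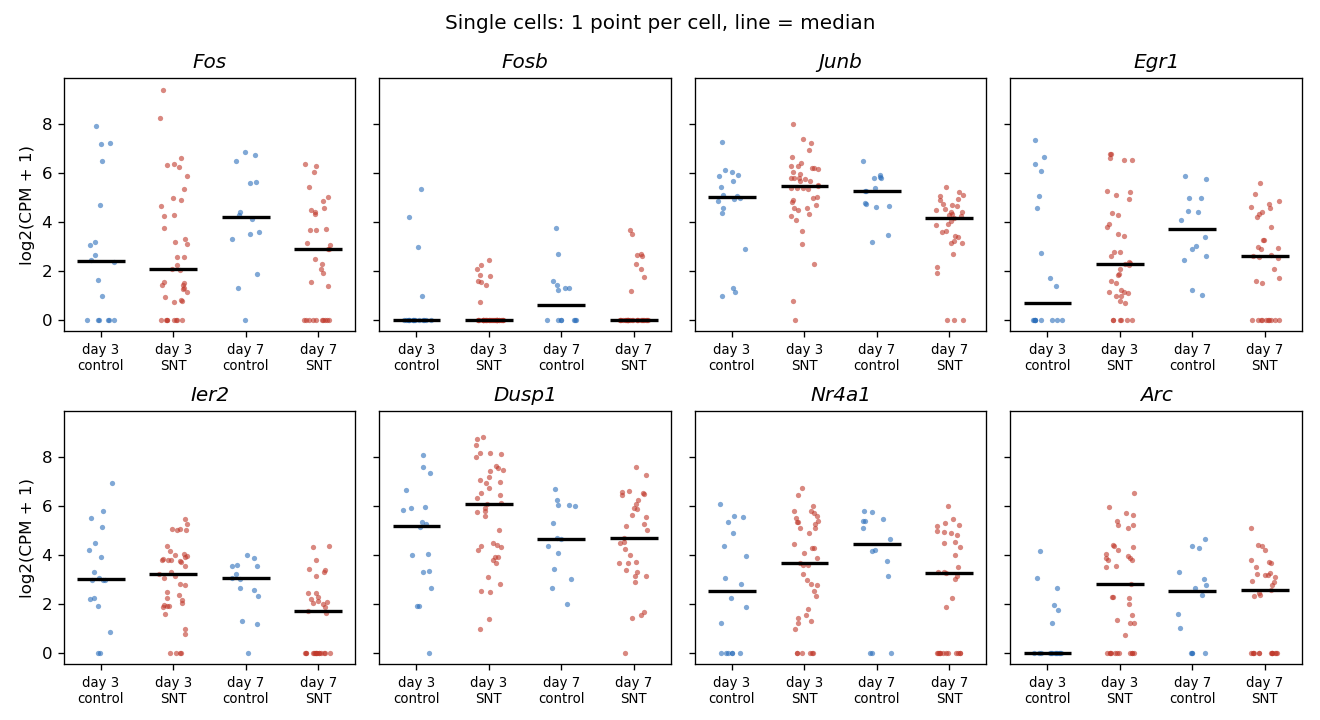
Level of each member as log2(CPM + 1) in retained cells by day and side, 1 point per cell (18 control-side and 41 SNT-side cells at day 3, 14 and 33 at day 7), with the median as a line. Arc at day 3 has a median of 0 on the control side and 6.07 CPM on the SNT side, and the sides overlap for every gene.

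The choice of cells and of average changed several day-3 ratios. With the 11 excluded cells added, the log2 ratio was 1.18 for Fos, 1.07 for Dusp1, 1.14 for Arc and -0.47 for Nr4a1, and that of Fosb turned to 0.24. That of Egr1 turned to 0.08, and those of Junb and Ier2 were 0.80 and -0.65. With the median in place of the mean it was 1.41 for Egr1, 1.14 for Nr4a1 and -0.30 for Fos. The ratio kept its sign in all 7 alternatives for Arc (1.04 to 2.82), Dusp1 (0.79 to 1.10) and Junb (0.34 to 0.80). For Fos, Fosb, Egr1, Ier2 and Nr4a1 it took the opposite sign in 1 to 3 of them. Library totals also differed by side at day 3, with medians of 1323932 counts on the SNT and 862619 on the control side, and thinning each cell to 200000 counts was 1 of the alternatives that kept the signs of Arc, Dusp1 and Junb.

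For Fos and Nr4a1, cell means and pooled libraries of day 3 were closer to each other on the SNT side than on the control side. Fos had a mean of 38.5 CPM in SNT-side cells and 31.1 CPM in SNT pools, but 37.4 CPM in control-side cells and 89.0 CPM in control pools. Nr4a1 had 22.4 and 30.2 CPM on the SNT side, but 15.6 and 59.8 CPM on the control side. Junb did the opposite, with 53.7 CPM in cells and 26.5 CPM in pools of the SNT side, and 38.6 and 46.2 CPM on the control side. The glial marker sum stood likewise at medians of 3810 and 3770 CPM in SNT-side and control-side cells, below the sums in the pools of the same side. Whether glial RNA in the pools accounts for these gaps was not tested.

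At day 7 the ratios were mostly below 0. The log2 ratio, SNT over control side, was -1.20 for Fos, -1.17 for Junb, -0.90 for Egr1, -0.80 for Ier2, -0.75 for Nr4a1, -0.20 for Fosb, -0.07 for Arc and 0.23 for Dusp1. Fos and Junb, 2 of the 8, were past 2-fold, against 9.86% of the 13320 genes that averaged 1 CPM or more, and 3.49% of those genes were past 2-fold downward. The median over the 8 was -0.77, against -0.03 over all genes. Of the 33 SNT-side cells at day 7, 12 had more Atf3 than any control-side cell, against 30 of 41 at day 3. For day 3 the paper proposes that some neurons of the SNT side may have been spared by the cut. Cells of low and high Atf3 were not separated in these ratios, and their part was not tested.

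Junb at day 7 ranged from 0 to 41.6 CPM with a median of 16.8 CPM and a mean of 16.6 CPM (SD 10.9, n = 33) on the SNT side, and from 7.9 to 88.9 CPM with a median of 37.3 CPM and a mean of 38.7 CPM (SD 21.8, n = 14) on the control side. The difference in means was about the SD of the control-side cells, with 5 control-side cells above every SNT-side cell and 8 SNT-side cells below every control-side cell. Fos had a median of 6.31 CPM (range 0 to 79.7, mean 14.7, SD 21.7) on the SNT side and 17.5 CPM (range 0 to 115, mean 35.1, SD 39.7) on the control side. Cells above 10 CPM of Fos were 13 of 33 (39.4%) and 10 of 14 (71.4%), the larger share being on the control side. Egr1 was detected in all 14 control-side cells and at 0 in 10 of 33 SNT-side cells, with means of 18.6 and 9.53 CPM.

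Ier2 at day 7 had a mean of 3.72 CPM (SD 5.26) on the SNT side and 7.2 CPM (SD 4.63) on the control side, and it was at 0 in 15 of 33 and 1 of 14 cells. Dusp1 had nearly equal medians of 24.4 and 24.3 CPM, and Arc had means of 6.47 CPM (SD 7.6) and 6.83 CPM (SD 8.06). Nr4a1 had a median of 8.42 CPM (range 0 to 62.8) on the SNT side and 20.7 CPM (range 0 to 53.6) on the control side. Unlike at day 3, the glial marker sum differed between the sides of the retained day-7 cells, with medians of 1500 CPM on the SNT and 5220 CPM on the control side. Its part in these ratios was not tested, and totals were also lower on the SNT side, with medians of 575179 and 738947 counts.

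Both sexes were labelled at day 7, with 16 female and 17 male SNT-side cells and 7 control-side cells of each sex. The log2 ratio of Fos was -0.99 in cells from females and -1.48 in cells from males, and that of Junb was -0.84 and -1.45, so both were below 0 within each sex. Egr1 (-0.68 and -1.15), Ier2 (-1.25 and -0.36) and Nr4a1 (-1.33 and -0.57) were below 0 in both as well. Dusp1 (0.66 and -0.26) and Arc (0.35 and -0.44) differed in sign between the sexes, a difference that was not tested. Mean Atf3 of the SNT-side cells differed too, at 548 CPM in cells from females and 279 CPM in cells from males. Its part in the difference between the sexes was not tested. Across the 33 SNT-side cells at day 7, Spearman's rho with Atf3 was 0.52 for Dusp1, 0.52 for Arc and -0.50 for Ier2. It was -0.33 for Nr4a1, 0.07 for Junb, 0.03 for Fosb, 0.02 for Fos and -0.04 for Egr1. Dusp1 also had a rho of 0.55 with the library total in these cells.

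Of the 5 members with a ratio above 0 at day 3, Dusp1 alone was above 0 at day 7 by means over all retained cells, and it was below 0 in cells from males. The day-7 ratio of Arc was close to 0 and took the opposite sign in 5 of 8 alternatives (-0.44 to 0.35). The difference between days was not tested, and day cannot be told apart from strain and read type. The share of SNT-side cells with more Atf3 than any control-side cell also differed between the days.

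Within a group of cells the members did not vary as a block. Over the 28 pairs of members the median Spearman's rho was 0.22 in day-3 SNT-side, 0.25 in day-3 control-side, 0.06 in day-7 SNT-side and 0.18 in day-7 control-side cells. Fos and Egr1 ranked cells most alike, with rho of 0.39 to 0.80 over the 4 groups, followed by Fos and Fosb with 0.41 to 0.62. Arc and Ier2 had values below 0 in all 4 groups, from -0.63 to -0.14. Several members also ranked cells like or unlike the neurofilament gene Nefh, which is high in large neurons. In day-3 SNT-side cells rho with Nefh was 0.45 for Arc, 0.38 for Nr4a1, 0.19 for Fosb and 0.01 for Fos. It was -0.03 for Egr1, -0.18 for Dusp1, -0.49 for Junb and -0.50 for Ier2. Over the 4 groups only Nr4a1 (0.13 to 0.78) and Dusp1 (-0.75 to -0.14) kept the sign of rho with Nefh. Arc ran from -0.14 to 0.70, Junb from -0.49 to 0.22 and Ier2 from -0.50 to 0.21. All genes of a cell share its library and depth, and these values are descriptions without a test.

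The number of members above 10 CPM in a cell had a median of 4 of 8 (range 1 to 7) in day-3 SNT-side cells and of 2.5 (range 1 to 6) in day-3 control-side cells. At day 7 the order turned, with a median of 3 (range 0 to 6) on the SNT side and 4.5 (range 1 to 6) on the control side. The ranges overlapped on both days. Cells with 6 or more members above 10 CPM were 10 of 41 and 3 of 18 at day 3, and 1 of 33 and 3 of 14 at day 7. With at least 1 count as the limit the medians were 7 and 5 at day 3, and 5 and 7 at day 7. Median library totals turned in the same way, with 1323932 and 862619 counts at day 3 and 575179 and 738947 at day 7. Members per cell were not counted again in thinned cells, so the part of depth was not tested.

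Nr4a1 was higher in cells with more glial marker RNA in all 4 groups. Its Spearman's rho with the summed glial markers was 0.78 in the 41 day-3 SNT-side, 0.72 in the 18 day-3 control-side, 0.67 in the 33 day-7 SNT-side and 0.89 in the 14 day-7 control-side cells. Of single glial genes, rho was from 0.65 to 0.89 for Apoe, a lipid carrier made by satellite glia, and from 0.67 to 0.79 for Kcnj10, a potassium channel of the same cells. Pmp22, of the same list, gave -0.64 to 0.09 and S100b 0.06 to 0.76. Nr4a1 was at 0 in 27 of the 106 retained cells, whose glial sum had a median of 1410 CPM, and above 10 CPM in 54 cells, with a median of 7180 CPM. With the summed neuronal markers the rho of Nr4a1 was 0.19, 0.60, -0.12 and 0.57 in the same order of groups, and with the neurofilament gene Nefh it reached 0.78 in the day-3 control-side cells. For Fos the rho with the glial sum was 0.46, 0.03, -0.06 and 0.10 in the same order of groups, and for Junb it was -0.14 to 0.02.

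The 11 excluded cells carried this further. Nr4a1 was 137 to 791 CPM in all 11, above the 105 CPM of the highest retained day-3 cell. In 5 of them, 3 being SNT-side and 2 control-side cells, Fos (814 to 6800 CPM), Junb (374 to 1540 CPM), Egr1 (296 to 1850 CPM) and Ier2 (154 to 460 CPM) each exceeded every retained day-3 cell. In the other 6 excluded cells Fos was 0 to 121 CPM and Ier2 at most 7.7 CPM, at a similar glial marker sum (40600 to 100000 CPM, against 59700 to 95100 CPM). Very high early gene levels were thus present in a subset of the excluded cells from both sides. Atf3 was 12 to 255 CPM in the excluded cells.

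**Figure D5:**
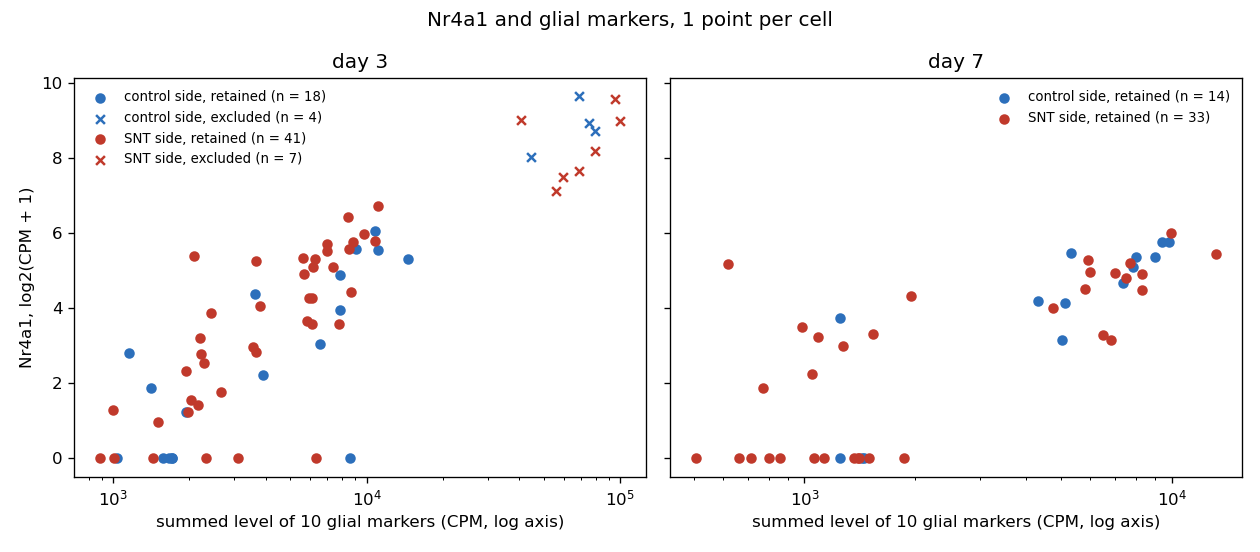
Nr4a1 as log2(CPM + 1) against the summed level of 10 glial markers in CPM (log axis) for each cell at day 3 (left) and day 7 (right), with retained cells as circles and the 11 excluded day-3 cells as crosses. Nr4a1 is higher in cells with more glial marker RNA on both sides, and all 11 excluded cells lie above every retained day-3 cell.

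The genes whose levels were most like the mean of the 8 members, on the log2(CPM + 1) scale, across the 106 retained cells were Zfp36 (weighted mean rho 0.51), Lhfp (0.47), Shc4 (0.47), Fkbp9 (0.45) and Nr1d2 (0.45), out of 11993 genes found in at least 53 of the cells. Zfp36 encodes an RNA-binding protein of the early response and Nr1d2 a nuclear receptor of the circadian clock. For Zfp36 the rho was 0.50 and 0.51 at day 3 and 0.40 and 0.77 at day 7 on the SNT and control side.

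Other genes of the pathway were followed in the pooled libraries by lists of regulators, partners and effectors. Among 12 kinases and transcription factors that act upstream of the early genes, 3 were higher in SNT libraries and none lower, Elk3 (log2 change 1.89), Mkl1 (1.58) and Mapk14 (1.19), at a list median of 0.21. Srf, which encodes serum response factor itself, was 4.01 CPM in SNT and 7.05 CPM in control libraries, and Creb1 was 24.2 and 17.3 CPM, neither of them called (edgeR adjusted p = 0.57 and 0.28). Of 6 tested AP-1 partners 4 were higher, with Atf3 at 6.86, Fosl2 at 3.2, Mafk at 2.31 and Jun at 2.13 on the log2 scale, and none was lower. Fosl2 and Jun thus rose in the libraries where Fos fell, while Jund (log2 change 0.15) was not called. Control libraries averaged 1.59 CPM of Fosl2 and 2.57 CPM of Mafk, so the sizes of both changes rest on few counts. In the retained day-3 cells the log2 ratio was 2.12 for Fosl2 and 1.55 for Jun, but that of Fos was 0.04.

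Of 11 other early transcription factors tested, Csrnp1 (4.33), Nfil3 (4.30), Crem (2.63) and Klf6 (2.40) were higher and Egr3 was lower (-3.02). Control libraries averaged 0.46 CPM of Csrnp1 and 1.59 CPM of Nfil3, and SNT libraries averaged 0.855 CPM of Egr3. The sizes of these changes thus rest on few counts. Of 20 feedback genes tested, 3 were higher and 3 lower. The higher ones were Gadd45g (2.97), Dusp14 (1.64) and Socs3 (1.17), and the lower ones were Spry4 (-3.47), Dusp5 (-2.83) and Dusp6 (-1.40), the last 2 being phosphatases that act on ERK. Dusp1 and Dusp14 thus rose in the same libraries in which Dusp5 and Dusp6 fell. SNT libraries averaged only 1.04 CPM of Spry4 and 1.12 CPM of Dusp5. In the retained day-3 cells these transcription factors and feedback genes had the same sign as in the pools, but Egr3 and Dusp6 were each at -0.23. Of 9 activity-regulated effectors tested, Vgf (2.19), Bdnf (1.85) and Pcsk1 (1.70) were higher and Cyr61 was lower (-4.54, at a mean of 0.29 CPM in SNT libraries). In the retained day-3 cells the log2 ratios were 0.89 for Vgf, 0.68 for Pcsk1, -0.66 for Bdnf (80.2 against 128 CPM) and 0.41 for Cyr61, so Bdnf and Cyr61 had the opposite sign to that in the pools. At day 7 they were 0.97 for Vgf, -0.68 for Pcsk1, -0.25 for Bdnf and -1.79 for Cyr61.

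Of 10 heat shock genes, which also respond to the handling of cells, none was called in either direction. Hsp90aa1 changed by 0.68 on the log2 scale (edgeR adjusted p = 1e-05), which is under the 2-fold limit, and Hspa1a stood at 9.62 and 3.3 CPM (edgeR adjusted p = 0.066). The same 10 genes had a median log2 ratio of -0.12 in day-3 and -0.25 in day-7 cells, where Hspa1a was past 2-fold lower on the SNT side (4.74 against 12.3 CPM). Over the 5 lists without heat shock genes, 22 of the 58 genes tested in pooled libraries were called, 17 higher and 5 lower, against 8.83% and 7.1% of all genes.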

How the data were processed

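Smart-seq2 libraries of 117 single cells picked as DRG neurons and 6 pooled libraries were analysed. The authors converted reads with CASAVA 1.8.2, aligned them with Bowtie2 to mm9 and estimated expression with RSEM, per the labels and methods. The deposited tables are named TPM but hold expected counts: totals per library run from 223967 to 2003817, and whole numbers make up 60.7% to 93.6% of a library's nonzero values. The 2 deposited tables, with and without outliers, hold the same values. Side and day came from sample titles. For pooled libraries the title was used, although 1 label calls all 6 intact and the identifiers in the table pair them with the opposite sides. The 8 members and all lists were chosen with earlier results of these data known.

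Counts were scaled to CPM by library total, and fitted changes also use the TMM factors. For pooled libraries, values were rounded, a mean of at least 1 CPM was required, and edgeR 4.0.16 in R 4.3.3 fitted the quasi-likelihood test with TMM factors and Benjamini-Hochberg adjustment. Calls required an adjusted p under 0.05 together with a change of more than 1 on the log2 scale. Cells carry no animal label, so sides were compared by the log2 ratio of mean CPM + 1 with no test, and the 95% interval of a share of cells is the exact binomial one (Clopper-Pearson), covering counting error only. Libraries without molecular identifiers count amplified copies. Some genes of the marker lists are not reported here by name. Alternatives used DESeq2 1.42.0, limma 3.58.1, other scaling and filters, thinning, a replicate block, each library left out and, for cells, other averages, pseudocounts and cell sets. Named genes are the members, the called genes of each list (at most 3 higher and 3 lower), Atf3, Jun and the 5 genes most like the members. Genes outside this rule (Klf6, Srf, Creb1, Jund, Hsp90aa1, Hspa1a and markers) were named after their values were seen. Same-numbered pooled libraries did not deviate together (correlations 0.058, -0.017 and -0.006), so the numbers do not pair them. Read counts of libraries of 1 side differed beyond sampling noise, with chi-square of 2.48 to 3.93 per gene. Python 3.11.15 with pandas 2.3.3 and scipy 1.17.1 was used for cells. Promoter letters are from RefSeq on GRCm38.p6 and gene positions from GENCODE M21, a later build than the mm9 of the files, which hold no coordinates.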

Additional observations from a re-analysis of the deposited data

Results flagged for a closer look

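The cells that the authors set aside at day 3 were outside the comparisons between sides. Among these 11 cells, the number above the highest retained control-side day-3 cell was 11 for Nr4a1, 5 each for Fos, Junb, Egr1 and Ier2, 4 for Arc and 2 each for Dusp1 and Fosb. The highest retained control-side cell had 238 CPM of Fos and 65.8 CPM of Nr4a1. The same 11 cells had the highest glial and the lowest neuronal marker sums of all cells.

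For 3 members the ratio between sides had opposite signs at the 2 time points and was past 2-fold at 1 of them. The log2 ratio at day 7 minus that at day 3 was -2.46 for Arc, -1.64 for Junb and -1.24 for Fos. The day-3 ratio of Fos was 0.04, and the day-7 ratio of Arc was -0.07 and above 0 in 5 of 8 alternatives, so neither sign was stable. These differences were not tested, since each side and day is 1 sample.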

How the results depend on the processing

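The count of all genes called in pooled libraries, 2154, was 1649 to 2243 over the alternatives, and that of other early genes, 22, was 15 to 24. No member changed sign in pooled libraries under any of the 14 alternatives. The count of members called, 5 at first, was 3 with libraries thinned to the smallest total, 2 to 5 when each library was left out, and 4 with a replicate block, where Egr1 had an edgeR adjusted p of 0.053. It was 3 without control library 3 and without SNT library 1, and 2 (Fos and Dusp1) without SNT library 3. Egr1 also lost its call in DESeq2 (adjusted p = 0.092), and its adjusted p ranged from 0.017 to 0.25 over the alternatives. Scaling by library size alone moved the median of all genes from 0.02 to -0.14 and the share of higher among called genes from 55.4% to 43.6%, with the same 5 members called. The cause of these losses was not tested, apart from the fewer counts that thinning leaves.

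In day-3 cells 2 members were past 2-fold, against 1 with a pseudocount of 10 and 3, all higher, with medians or with excluded cells included, and the Fosb ratio turned from -1.56 to 0.24 with the latter. In day-7 cells 2 members were past 2-fold, against 5 with medians and 0 with a pseudocount of 10, which shrinks ratios of low genes by construction. Mean members per cell differed by 0.95 at day 3 and -1.23 at day 7, against 0.23 and -0.75 above 50 CPM and 1.12 and -1.53 above 0 counts. Median library totals differed between the sides in the same direction on each day, and cells were not thinned for these numbers. Depth limits Fosb, with 4 counts in all pooled libraries, and Ier2, with 19 counts in the SNT pools.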
